A study of Saccharomyces cerevisiae with 22 samples.

Results

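Described here are 6 stretches of the budding yeast genome, out of the 11866 bins of 1 kb that held at least 1 insertion site. They are named for 7 genes, PHO4, MRK1 and MDH3 (which share a bin), MNN4, UTH1, ZWF1 and SPO24. They were selected on their measured site counts, as places where insertions of the retrotransposon Ty5 gathered under several different transcription factor fusions, so their counts are given as a description with no test. The study mapped Ty5 insertions in 22 libraries of Saccharomyces cerevisiae by the calling card method: DNA was cut with Hinp1I, HpaII or TaqI, closed into circles, amplified outward from Ty5 and sequenced on an Illumina GAII. A Sir4 fusion was present in 21 libraries, which carried 1 of 11 transcription factors, and 1 library, Sir4-free, carried none. Of the fusions, 8 (Gal4, Kar4, Lee1, Rgm1, Rpi1, Sef1, Sfg1 and Yrm1) came from 2 multiplex pools, which the series text gives as biological replicates, while the other libraries stand alone.

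The 3 plasmid libraries are labelled as overexpressing a Gal4, Leu3 or Gcn4 fusion. These, the pooled fusions and the Sir4-free library shared a MATa/MATα diploid. On both homologues it carried his3∆1, leu2∆0 and ura3∆0 as well as sir4::KanMX and trp1::Hyg, and it was heterozygous at MET15 (met15∆0) and LYS2 (lys2∆0). Thi2 was fused at its own locus (THI2::sir4) in a MATa haploid with his3∆1, leu2∆0, ura3∆0 and met15∆0, again with both sir4::KanMX and trp1::Hyg, grown without thiamine (starved) or in complete medium. All groups therefore lacked native SIR4, and the libraries were prepared from His+ FOAr colonies grown on synthetic complete medium with glucose or galactose, which of them per library not being given. No library is labelled as carrying the Sir4 part with no transcription factor, so what Sir4 alone adds over the Sir4-free library cannot be told apart from what the transcription factor adds.

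Ty5 integrase binds Sir4, which normally directs the element to silent chromatin. A transcription factor fused to Sir4 brings the integrase to the DNA the factor occupies, and the inserted Ty5 stays as a record of the visit. Places that several factors mark are of interest because these sequence-specific factors are known for different target genes. Examples are Gal4 (galactose genes), Leu3 (branched-chain amino acid synthesis), Gcn4 (amino acid starvation) and Yrm1 (drug resistance). How alike the factors are in the DNA they bind was not examined here.

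The libraries held 4755 to 79573 distinct sites (a chromosome, position and direction, counted once whatever its number of reads) and 444512 in all. One site more or less therefore moves a share most in the 2 Rgm1 libraries, which were the shallowest, and least in the Sir4-free library, which was the deepest. Between 0 and 5 sites per library lay inside SIR4 as R64 numbers it, the gene deleted in all groups.

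The 6 bins together took 3.42% and 3.64% of the sites in the 2 Sef1 libraries, 2.79% and 2.92% in pooled Gal4, 2.83% and 2.80% in Yrm1, 2.84% in Leu3, 1.71% in plasmid Gal4 and 1.04% in Gcn4, against 0.317% in the Sir4-free library. In the Lee1 libraries they took 0.353% and 0.323%, and in Thi2 0.218% when starved and 0.319% in complete medium. Sef1, Gal4, Yrm1 and Leu3 libraries thus placed several times more of their sites in these bins than did Lee1 or Thi2, whose shares lay near the Sir4-free one.

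Fold values below are a protein's mean share over its libraries divided by the Sir4-free share, and 4-fold was used as the mark of an occupied bin. PHO4, MRK1, MNN4, ZWF1 and SPO24 bins passed 4-fold with 4 of 11 proteins each and the UTH1 bin with 3. No bin of the 6 reached 6 of 11 proteins, a majority, which 0.0197% of the 5073 bins with at least 20 sites did. That 0.0197% is 1 bin, at PIH1 and NEL1 (chr8:177001-178000, 1227 fusion sites and 4 Sir4-free sites), named here after its values were seen. With 3 or more of 11 proteins, a threshold added once the counts were known, all 6 bins are included, against 1.01% of all tested bins (51), and since the bins were selected on these counts nothing is read from the contrast. "Many different fusions" therefore meant 3 or 4 of 11 proteins. The median fold over the 11 proteins ran from 0.878 (MRK1) to 1.80 (PHO4) in the 6 bins, against 0.621 as the median of that value over all tested bins.

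**Figure D1:**
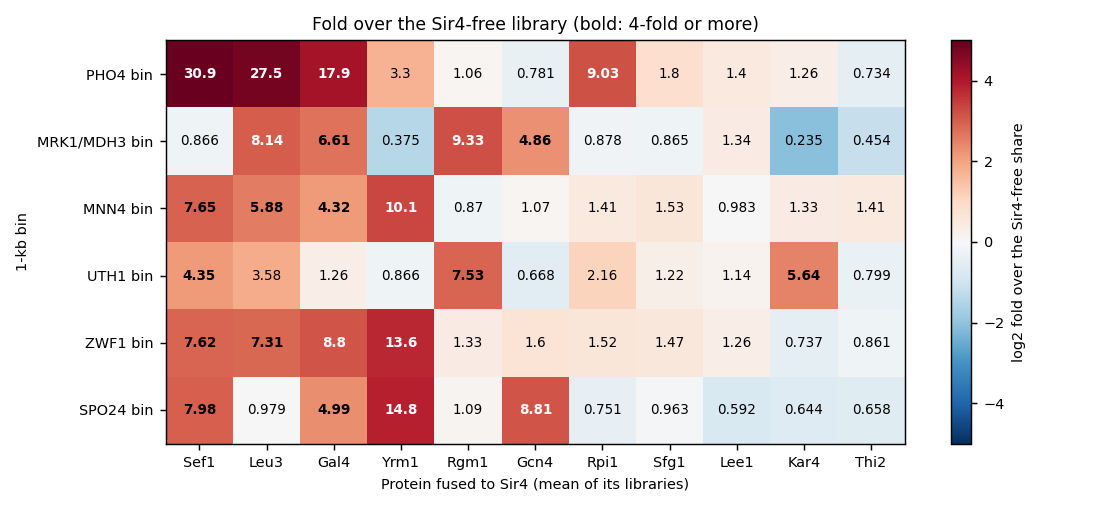
Fold of each protein's mean share of sites over the Sir4-free share (colour, log2 scale; number, linear fold) in the 6 bins, with proteins ordered by their mean log2 fold. Sef1 and Gal4 pass 4-fold in 5 bins each, while Lee1, Sfg1 and Thi2 pass it in none.

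Which proteins were involved was uneven. Gal4 passed 4-fold in 5 of the 6 bins (2.98% of all tested bins), as did Sef1 (2.4%). Leu3 passed in 4 bins (3.17%), Yrm1 in 3 (2.82%), and Gcn4 and Rgm1 in 2 each (3.15% and 3.41%). Rpi1 passed only in the PHO4 bin (1.73%) and Kar4, a factor of mating, only in the UTH1 bin (2.29%). Lee1 (0.71%), Sfg1 (0.611%) and Thi2 (1.95%) passed in none of the 6. In all, 23 of the 66 protein and bin pairs were at 4-fold or more, 20 of them in every library of the protein. PCR reads are not independent molecules, so intervals here cover counting of sites only.

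The Sir4-free library was itself dense in these bins. It had 47 sites in the PHO4 bin, 22 in MRK1, 47 in MNN4, 25 in UTH1, 50 in ZWF1 and 61 in SPO24, against a median of 4 per bin over all bins. These counts exceeded those of 94.3% (MRK1) to 99.7% (SPO24) of bins. All 6 stretches thus also collected insertions with no fusion present, and the part this plays in the fold values was not tested.

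PHO4 encodes the basic helix-loop-helix activator of the phosphate starvation genes. Its bin (chr6:225001-226000) held 1584 fusion sites, the most of the 6, and 47 Sir4-free sites, and 76.7% of the fusion sites of the 5 kb centred on it lay in it, against 32.4% of the Sir4-free sites. Sef1 placed 1.69% and 1.96% of its sites there, pooled Gal4 1.40% and 1.36%, and Leu3 1.62% (95% interval 1.39 to 1.88, Clopper-Pearson), against 0.0591% (0.0434 to 0.0785) in the Sir4-free library. These 3 proteins stood at 30.9-fold, 17.9-fold and 27.5-fold in the order Sef1, Gal4 and Leu3, and the 2 pooled Gal4 libraries differed little. Rpi1 gave 0.533% and 0.534%, or 9.03-fold, and plasmid Gal4 0.411% (0.310 to 0.535), or 6.96-fold, so the plasmid and pooled Gal4 libraries did not overlap. Yrm1 at 0.228% and 0.162% came next, 3.30-fold, while Gcn4, with 11 sites and 0.0462%, and Thi2, with 0.0436% starved and 0.0430% in complete medium, lay near the Sir4-free share. By the gene order of RefSeq release R64, used only for names, the bin lies at the PHO4 gene itself more than upstream of it, with QCR6 (a subunit of respiratory complex III) on one side and YFR035C and YFR035W-A on the other.

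MRK1 is a kinase of the glycogen synthase kinase 3 family and MDH3 the peroxisomal malate dehydrogenase. Their shared bin (chr4:315001-316000) was the sparsest, with 215 fusion sites and 22 Sir4-free sites. Rgm1 placed 0.273% and 0.243% there (13 and 12 sites), Gal4 0.269% on the plasmid and 0.143% and 0.137% in the pools, Leu3 0.225% and Gcn4 0.134%, against 0.0276% (0.0173 to 0.0419) in the Sir4-free library. Averaged by protein, the folds were 9.33 for Rgm1, 8.14 for Leu3, 6.61 for Gal4 and 4.86 for Gcn4. Gal4 stood at 9.73-fold on the plasmid and 5.06-fold in the pools. The 95% intervals (conditional exact binomial) were wide: 4.58 to 20.5 and 3.96 to 18.5 for the Rgm1 libraries and 2.74 to 8.77 for Gcn4. Neighbours in the order of the folds are not separated by their intervals. Sef1, with 3 and 4 sites, was at 0.866-fold, although it led at PHO4. Kar4 replicate 2, Yrm1 replicate 2 and starved Thi2 held no site. In these libraries 3 sites would be shares of 0.0192%, 0.0202% and 0.0327%. The upper ends of their 95% Clopper-Pearson intervals are 0.0236%, 0.0248% and 0.0402%. Both genes run the same way by the R64 order, so that the interval between them is upstream of MRK1 and downstream of MDH3. The bin lies over part of that interval and, for 64.4% of its length, over MDH3.

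MNN4 encodes a regulator of mannosylphosphate transfer to cell wall mannan. Its bin (chr11:68001-69000), which by the R64 order lies mostly at PTK1, a kinase gene beside MNN4, held 659 fusion sites and 47 Sir4-free sites. Yrm1 placed 0.608% and 0.586% of its sites there, Sef1 a mean of 0.452 ± 0.0676% (SD, n = 2), Leu3 0.347% (0.244 to 0.478), plasmid Gal4 0.306% (0.220 to 0.415) and pooled Gal4 0.236% and 0.223%, against 0.0591% (0.0434 to 0.0785) in the Sir4-free library. The folds were 10.1 for Yrm1, 7.65 for Sef1, 5.88 for Leu3 and 4.32 for Gal4. The Gal4 fold passed 4 through its plasmid library at 5.19, while the pooled mean of 0.230 ± 0.00887% (SD, n = 2) was 3.89-fold. The next bin to the right held a further 333 fusion sites and 31 Sir4-free sites, so the cluster reached beyond the bin's edge.

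At the UTH1 bin (chr11:518001-519000) Rgm1 and Kar4 led, and Gal4 was near the Sir4-free share. UTH1 encodes a protein of the SUN family with roles at the mitochondrion and cell wall, and by the R64 order the bin lies near its neighbour YKR041W, though the files and R64 numbering differ by about 380 bp here. The bin held 251 fusion sites and 25 Sir4-free sites. Rgm1 gave 10 and 13, shares of 0.210% and 0.263%, and Kar4 gave 33 and 33, shares of 0.143% and 0.211%. Sef1 gave 0.120% and 0.153% and Leu3 0.113% (0.0582 to 0.197), against 0.0314% (0.0203 to 0.0464) in the Sir4-free library. The folds were 7.53 for Rgm1, 5.64 for Kar4, 4.35 for Sef1 and 3.58 for Leu3, and Gal4, which passed 4-fold in the other 5 bins, was at 1.26-fold. Sef1's fold was 3.82 in replicate 1 and 4.88 in replicate 2, and leaving out replicate 2 took it below 4. Starved Thi2 held no site, where 3 sites would be a share of 0.0327% and the 95% Clopper-Pearson interval ends at 0.0402%.

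ZWF1 encodes glucose-6-phosphate dehydrogenase, the first enzyme of the oxidative pentose phosphate pathway. In its bin (chr14:198001-199000), which the R64 order puts between ZWF1 and NAR1 and partly over NAR1, an iron-sulfur protein gene, lay 884 fusion sites and 50 Sir4-free sites. Yrm1 placed 0.767% and 0.936% there, pooled Gal4 0.614% and 0.814%, Sef1 0.407% and 0.551% and Leu3 0.460% (0.340 to 0.607), against 0.0628% (0.0466 to 0.0828) in the Sir4-free library. Plasmid Gal4, at 0.232% (0.157 to 0.329), lay below both pooled Gal4 libraries and was 3.69-fold over the Sir4-free share. Averaged by protein, the folds were 13.6 for Yrm1, 8.80 for Gal4, 7.62 for Sef1 and 7.31 for Leu3. The replicate ranges of Yrm1 and Gal4 overlapped, as did those of Sef1 and the Leu3 interval.

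SPO24 encodes a small protein with a role in sporulation, and its bin (chr16:645001-646000) lies between VMA13, a subunit of the vacuolar proton pump, and SPO24 by the R64 order. It held 991 fusion sites and 61 Sir4-free sites and was the most sharply bounded, with 84.7% of the fusion sites of the 5 kb centred on it, against 57.0% of the Sir4-free sites. Yrm1 placed 1.19% and 1.08% there, Gcn4 0.676% (0.575 to 0.788), Sef1 0.680% and 0.544%, plasmid Gal4 0.456% (0.349 to 0.585) and pooled Gal4 0.360% and 0.331%, against 0.0767% (0.0586 to 0.0985) in the Sir4-free library. Folds of 14.8 for Yrm1, 8.81 for Gcn4, 7.98 for Sef1 and 4.99 for Gal4 followed. Leu3, prominent in 4 of the other bins, had 8 sites here and stood at 0.979-fold. Rgm1 gave 0.147% and 0.0202%, 7 sites and 1 site, which shows how far the 2 shallow libraries can differ.

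**Figure D2:**
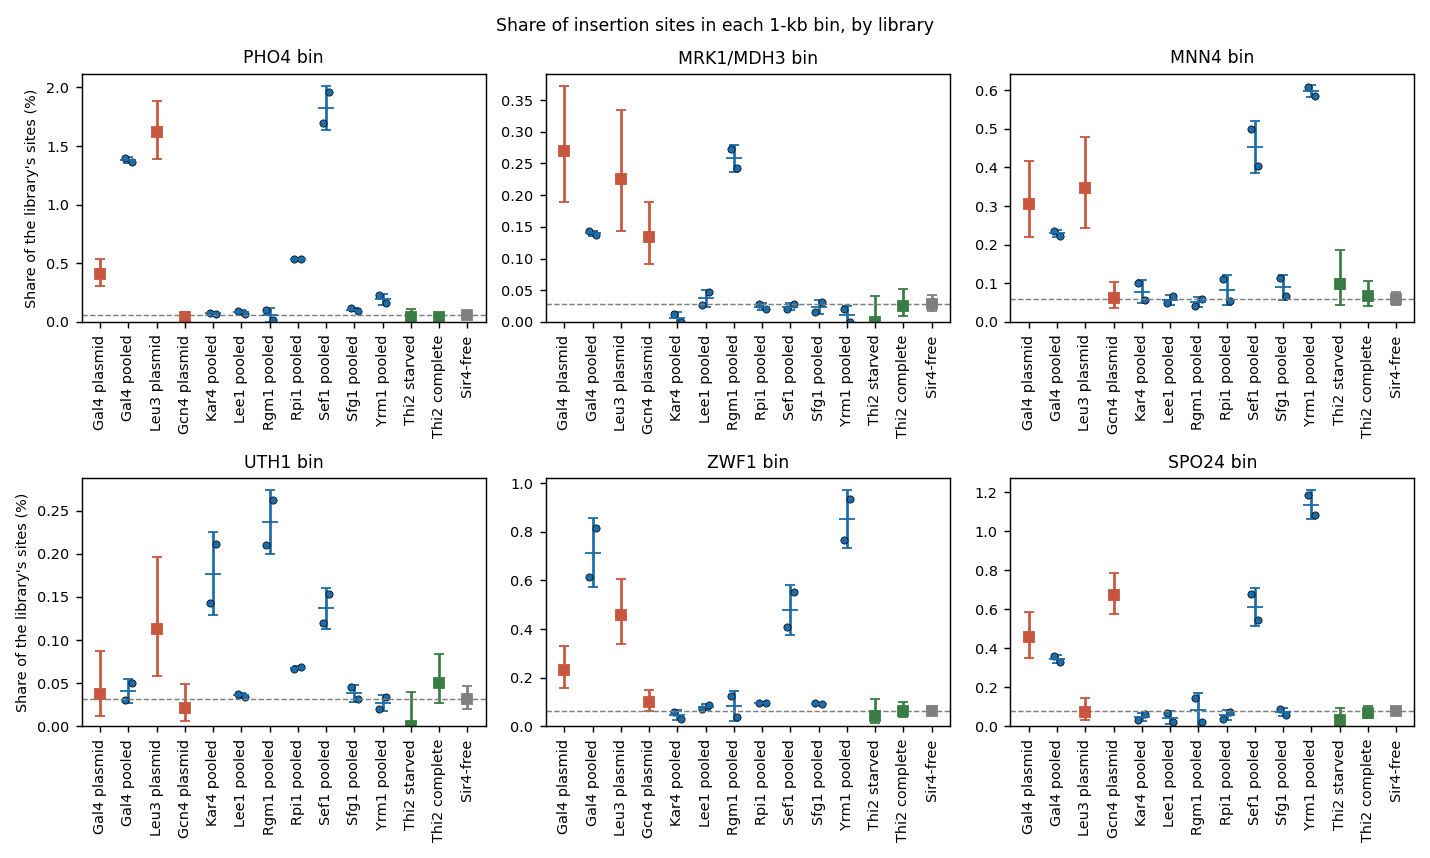
Share of each library's sites in the 6 bins (y axis, percent, from 0; scales differ between panels). Squares are single libraries with 95% Clopper-Pearson intervals, circles are the 2 pooled replicates with mean and SD, and the dashed line is the Sir4-free share: Yrm1 stands highest in MNN4, ZWF1 and SPO24, Sef1 in PHO4.

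Among the pooled fusions, each was also set against the mean of the other 7 in a fit over 5460 bins with edgeR's quasi-likelihood model. Since the bins were selected on the same counts, no p is given. At PHO4 the log2 difference was 3.50 ± 0.18 (SE) for Gal4, 3.48 ± 0.17 for Sef1 and 1.34 ± 0.22 for Rpi1. At SPO24 it was 3.65 ± 0.18 for Yrm1, at ZWF1 2.94 ± 0.20 for Gal4 and 2.88 ± 0.19 for Yrm1, and at MNN4 2.68 ± 0.21 for Yrm1. MRK1 showed 2.98 ± 0.37 for Gal4 and 2.48 ± 0.44 for Rgm1, and UTH1 showed 1.55 ± 0.27 for Kar4, 1.22 ± 0.31 for Sef1 and 1.10 ± 0.39 for Rgm1. These sizes depend on scaling, whose TMM factors ran from 0.626 to 1.70. On library size alone Gal4 at MNN4 was 0.72 ± 0.26 in place of 1.46 ± 0.27, Rgm1 at UTH1 1.94 ± 0.41, and at MRK1 Rgm1 (3.31 ± 0.46) stood above Gal4 (2.23 ± 0.35), the other order from that under TMM. The order turned likewise at PHO4, with 3.24 ± 0.16 for Sef1 and 2.75 ± 0.17 for Gal4, and at ZWF1, with 2.56 ± 0.18 for Yrm1 and 2.19 ± 0.19 for Gal4.

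Over the 13 fusion groups the bins fell into like and unlike patterns. Pearson's r of log2(share + 0.01%) was 0.89 between MNN4 and ZWF1, 0.78 between PHO4 and ZWF1, 0.73 between PHO4 and MNN4 and 0.72 between ZWF1 and SPO24. It was 0.65 between MNN4 and SPO24 and 0.35 between PHO4 and SPO24. With UTH1 or MRK1 it was at most 0.33, and -0.07 between UTH1 and SPO24. The groups share pools and depths, so these values describe the libraries and carry no p.

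Outside the 6, the bins whose pattern was most alike (among at least 353 bins with 160 or more fusion sites) were TIM9 (0.90), PMA1/YGL007C-A/BRP1 (0.90) and ARG80/MCM1 (0.88) for PHO4. For MRK1 they were YBR032W/EDS1 (0.79), MRP20/PDR15 (0.77) and RHO5 (0.76). After ZWF1, MNN4 was most like MDH2/TRM13 (0.88) and MOD5 (0.88). For UTH1 the nearest were COA6/FAA4 (0.86), YPR063C/YPR064W (0.74) and YBL029C-A/YBL029W (0.71). ZWF1 was followed by PDR16 (0.85), a phosphatidylinositol transfer protein gene, and RRN5/PUT1 (0.84), and SPO24 by VHR1 (0.83), GIP3/ISU1 (0.83) and YMR103C (0.81).

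Position within the bin was not used to select it, and the medians differed between fusions. Medians here and in the tests below take only sites inside the bin, so a cluster that crosses its edge is cut off. At PHO4 the median position was 225334 for Leu3, 225442 and 225447 for Sef1, 225538 and 225532 for pooled Gal4, 225737 and 225629 for Rpi1 and 225758 for plasmid Gal4, against 225414 for the Sir4-free library. Sef1 and pooled Gal4 replicates lay within a few bases of each other, while plasmid Gal4 lay further right than pooled Gal4. At MRK1 the Leu3 median, 315630, stood apart from those of Rgm1 (315039 and 315068), plasmid Gal4 (315090) and Gcn4 (315252). The Sir4-free median was 315206. Of the 13 sites of Rgm1 replicate 1, 11 fell in the first 100 bp of the bin. The next bin to the left held 63 fusion sites.

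At MNN4 the Sef1 medians were 68828 and 68808.5, those of pooled Gal4 68811.5 and 68823 and those of Yrm1 68732 and 68749. The Sir4-free median was 68521, and Leu3 (68503) and plasmid Gal4 (68494) lay near it. In the last 100 bp of the bin lay 29.3% of its Sef1 sites and 31.9% of its pooled Gal4 sites. The next bin to the right held 333 fusion sites. The UTH1 medians of Kar4 were 518477 and 518546 and those of Rgm1 518659 and 518633, to the right of Sef1 (518267 and 518382) and of the Sir4-free median, 518352. In ZWF1 the medians of pooled Gal4 (198685 and 198691) and Yrm1 (198578 and 198655) lay right of Sef1 (198429 and 198500), plasmid Gal4 (198278), Gcn4 (198268) and the Sir4-free median (198356). Sites of Yrm1, pooled Gal4 and Sef1 there lay on both sides of a sparse stretch. Yrm1 had 48 at 198301-198400, 3 at 198501-198600 and 54 at 198801-198900, both replicates together. Pooled Gal4 had 22, 5 and 53, and Sef1 20, 2 and 26. The Sir4-free library had 8, 1 and 5, so the stretch was sparse without a fusion too. These medians thus depend on how the sites divide between the sides. At SPO24 the medians of Yrm1 (645598 and 645587), pooled Gal4 (645580 and 645568), plasmid Gal4 (645569) and Sef1 (645510 and 645548) were close, with Gcn4 at 645480 and Rpi1 at 645230 and 645298 to the left. The Sir4-free median, 645298, also lay to the left of Yrm1, Gal4, Sef1 and Gcn4.

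**Figure D3:**
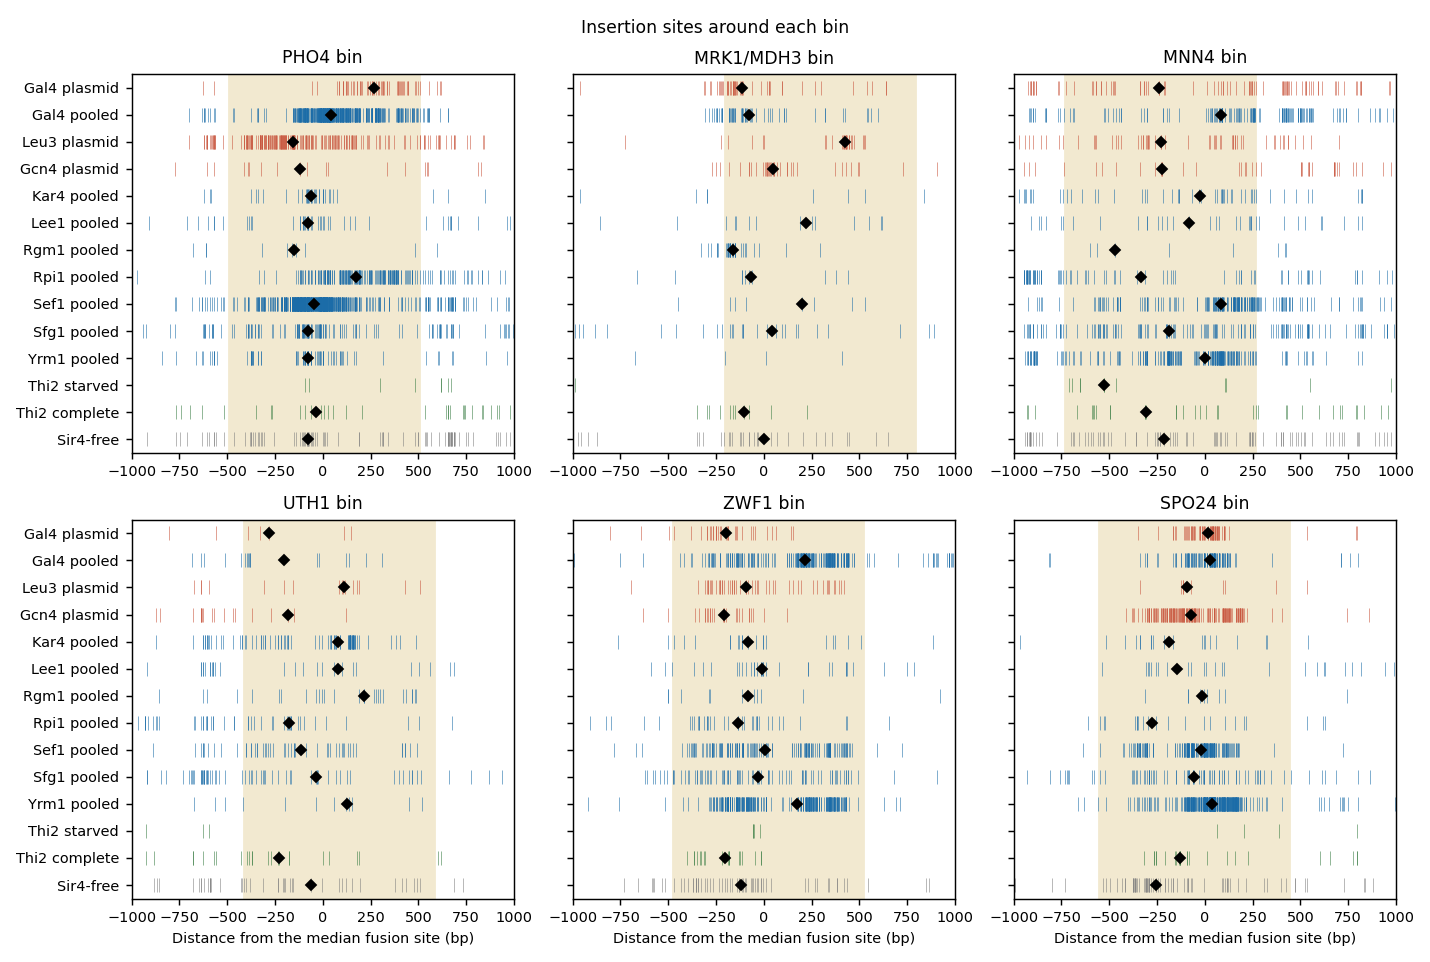
Every insertion site around the 6 bins, as distance in bp from the median fusion site (x axis, higher file coordinates to the right), with both directions and both replicates of a pooled fusion on 1 row. Shading marks the bin and diamonds the median of rows with at least 5 sites in it: at MRK1 the Leu3 diamond stands to the right, and at ZWF1 those of pooled Gal4 and Yrm1 do. The ZWF1 sites of these fusions, like those of the Sir4-free library, lie on both sides of a sparse stretch.

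Whether replicates of 1 fusion lay closer together than different fusions was tested by reassigning the replicate 2 libraries among the pooled fusions in every order (exact permutation test, one-sided), with Benjamini-Hochberg adjustment over the 228 bins that had at least 5 sites in both replicates of at least 5 fusions. No bin passed an adjusted p of 0.05 (0.0% of bins), and 43 (18.9%) had an unadjusted p under 0.05. At SPO24 the mean distance between medians was 48.9 bp within a fusion and 149 bp between fusions, the exact permutation p being 0.00278 and the adjusted p 0.141. UTH1 gave 86.6 bp within and 201 bp between (exact permutation p = 0.0127, adjusted p = 0.145), PHO4 39.0 bp and 107 bp (exact permutation p = 0.0143, adjusted p = 0.145) and MNN4 104 bp and 179 bp (exact permutation p = 0.0333, adjusted p = 0.205). For ZWF1 the distances were 120 bp and 177 bp, with an exact permutation p of 0.0905 and an adjusted p of 0.285. Distances within a fusion were shorter in all 5 bins tested, as they were in the median of all tested bins (72.9 bp within and 98.4 bp between), but in none of the 5 did the difference hold up after adjustment. With 5 to 8 fusions the number of orders limits how small p can be. The lack of calls over 228 bins therefore does not show that fusions lay at the same positions. Fusions entered the test by their number of sites, whatever their fold. At SPO24 they included Kar4 (0.644-fold), Rpi1 (0.751-fold) and Sfg1 (0.963-fold) beside Gal4, Sef1 and Yrm1. Distances between fusions thus also set fusions at 4-fold or more against fusions near the Sir4-free share.

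MRK1 had only 4 fusions with enough sites and was not among the 228. When bins with 4 fusions were admitted, a choice made after its values were seen, it gave 128 bp within and 167 bp between (exact permutation p = 0.167, adjusted p = 0.420). With at least 3 sites per library, 6 fusions entered and the order turned, with 163 bp within and 158 bp between (exact permutation p = 0.378, adjusted p = 0.651). Leu3, which has 1 library, enters no such test.

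**Figure D4:**
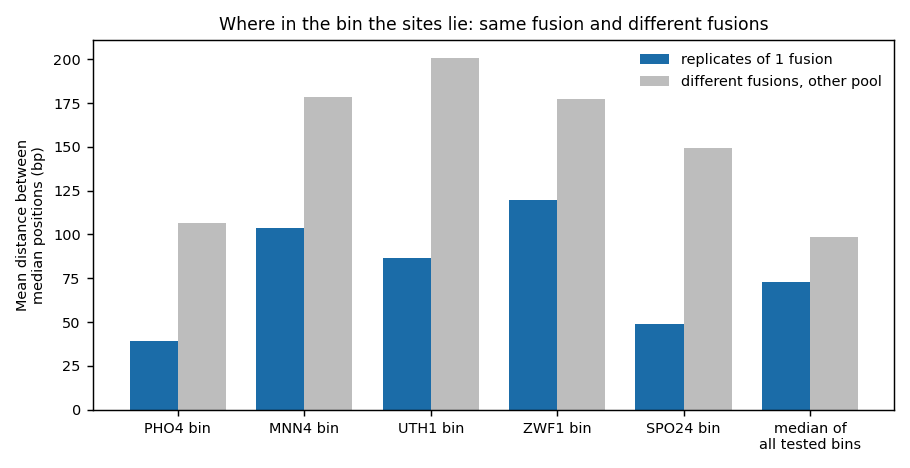
Mean distance in bp between the median positions of 2 libraries, for replicates of 1 fusion (blue) and for different fusions across the pools (grey), in the 5 bins that could be tested, with the median over all 228 tested bins at the right. Blue bars are shorter throughout, from 39.0 bp at PHO4 to 120 bp at ZWF1, and no difference passed adjustment.

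Direction and reads per site were not used in the selection either, and whether they vary with site density was not tested. Over the 11 proteins (9 at MRK1) the mean share of sites in the forward direction was 46.9% at PHO4, 62.2% at MRK1, 51.8% at MNN4, 46.7% at UTH1, 53.6% at ZWF1 and 45.0% at SPO24. MRK1 had an exact sign-flip permutation p of 0.0469 and an adjusted p of 0.341, with 6 of 9 proteins above an even split, and no bin of the 946 tested passed adjustment (0.0%, with 130 at an unadjusted p under 0.05). The median reads per site ran from 1.32 times (UTH1) to 1.67 times (PHO4) the library's own median. ZWF1, at 1.43 times and higher in 9 of 11 proteins, had an exact sign-flip permutation p of 0.0215 and an adjusted p of 0.302, and again no bin of 946 passed (0.0%, with 123 at an unadjusted p under 0.05). In both tests the 6 to 11 proteins of a bin limit how small p can be. No bin could therefore pass over 946 by itself, only together with others at a similarly small p. Thus 0 calls does not show an even direction or equal reads.

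Many sites in the 6 bins recurred at the same base and direction in several libraries. At PHO4, 72 of 749 distinct positions were listed in 5 or more libraries, and position 225429 in 13 libraries of 8 proteins, the Sir4-free library included. ZWF1 had 34 of 485, SPO24 51 of 533, MNN4 19 of 446, MRK1 4 of 184 and UTH1 1 of 205. In the 16 pooled libraries a median of 50.7% of the sites in the 6 bins (28.1 to 58.5) was also listed by another fusion of the same pool, against 18.7% over all sites, and 46.2% by another fusion in the other pool, against 17.2%. The Sir4-free library shared 55.6% of its sites in the bins with pooled libraries, against 18.6% over all its sites. Lee1, in none of the 6 bins at 4-fold, shared 58.5% and 54.2% of its sites there with other fusions of its pool, against 17.8% and 13.5% over all its sites. With its own replicate it shared 3.08% and 4.17% there, against 2.23% and 2.76% over all its sites, while Sef1 shared 45.4% and 44.6% there with its own replicate, against 20.5% and 21.4%. The bins are denser than most, and the part of density, recurrent bases or carry-over between libraries in this sharing was not tested.

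Leaving out every site that another library of the same pool also listed lowered PHO4 folds to 20.7 for Sef1, 9.84 for Gal4 and 4.69 for Rpi1, and the SPO24 fold of Sef1 to 4.27. Of the 23 pairs at 4-fold or more, 21 remained. Gal4 at MNN4 (3.57) and at SPO24 were lost. Single libraries such as Leu3 and Gcn4 are untouched by this step.

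Genes that work with the 7 were looked up by name. Each was given a bin at or just upstream of its start by the R64 numbering. That bin need not hold the start, and those given to MRK1 and ZWF1 do not. MDH3, MNN4 and UTH1 were given bins other than their member bins, each with 0 proteins at 4-fold, so the lookup can miss a cluster. For 46 other genes such a bin was tested. Of these, 0 had 6 or more proteins at 4-fold and 0 had 3 or more. There were 2 or more in 1 gene and at least 1 in 8. Among all tested bins, placed without regard to gene starts, 4.4% had 2 or more and 19.5% at least 1. In the phosphate group 1 of 16 had a protein past 4-fold, PHO91, a vacuolar phosphate transporter, at 26.7-fold with Rgm1. TAL1, the transaldolase, was the 1 of 10 in the pentose phosphate group, at 7.15-fold with Yrm1. Among malate dehydrogenase and glyoxylate genes 3 of 5 had one, with MDH2 at 7.86-fold with Sef1 and MLS1, malate synthase, at 11.8-fold with Sef1. None of 3 other kinases of MRK1's family, 1 of 3 SUN genes (SIM1, 6.53-fold with Rpi1) and 2 of 9 mannan genes (OCH1, 4.73-fold, and ANP1, 4.13-fold, both with Rpi1) had one. These counts leave out chromosome 11, where the files and R64 are numbered differently at UTH1. With its 1 other gene, MDH1, the mitochondrial malate dehydrogenase, which had 2 proteins at 4-fold and 20.2-fold with Gal4, 2 of 47 had 2 or more and 9 had at least 1.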

How the data were processed

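Each deposited file gives 1 line per Ty5 insertion: chromosome, position, direction and the authors' raw read counts, which per the labels were not normalized. Aligner, build and filters: not given in the sources used here, so coordinates are printed as in the files, and RefSeq R64 served only for gene names and neighbours. The shift between the 2 numberings was judged by where fewest sites fell inside genes. The best shift was at most 30 bp in size around 5 of the bins and 380 bp at UTH1. Shifts within 1 percentage point of the best ran from -50 to 90 bp over the 5 bins and from 350 to 410 bp at UTH1. A site was counted once per library whatever its reads; 4019 sites listed more than once in the Sir4-free file were merged. The members and gene lists were chosen with earlier results of these data known.

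Sites were counted in bins of 1000 bp, and folds were computed in bins with at least 20 sites, with a floor of 3 sites for the Sir4-free library. Intervals are 95% Clopper-Pearson or conditional exact binomial. Site counts of the 16 pooled libraries were fitted with edgeR 4.0.16 (glmQLFit, TMM, bins with at least 10 sites). DESeq2 1.42.0, library-size scaling and read minimums of 2 and 5 were alternatives. Permutation tests used Python 3.11.15. The main edgeR fit and the permutation tests of position, direction and reads were also run on simulated data. The alternative fits were not. The genes named are the 7 members, genes starting in or within 500 bp of their bins, the 3 most alike bins each, and list genes. The medium per library is not given, and pools are the only replicates. Per the labels a replicate number marks 1 multiplex pool shared by 8 fusions, so the number pairs libraries. Over 28 pairs of fusions the correlation of their deviations had a median of 0.08, with 11 above 0.1.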

Additional observations from a re-analysis of the deposited data

How the results depend on the processing

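The mean share over 11 proteins, summed over the 6 bins, was 1.44% and moved to 1.70% with at least 5 reads per site and to 1.10% with sites shared within a pool left out. Over single left-out pooled libraries it was 1.42 to 1.45%. The number of bins with 6 or more proteins at 4-fold was 1 and became 0 with at least 5 reads per site, 0 with shared sites left out, 51 with 3 or more proteins and 53 with 2-fold, the last 2 settings being chosen after the data were seen. It was 0 to 1 over the left-out libraries, with 0 without Kar4 replicate 1. The cause was not tested. Of the 23 pairs at 4-fold, 22 remained with at least 2 reads (Sef1 at UTH1 lost), 21 with at least 5 reads (Gal4 at MNN4 and Sef1 at UTH1 lost), and 23 with sites defined without direction or with a recentred window.

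Of the log2 differences of a pooled fusion against the other 7, 17 exceeded 1. DESeq2 gave 16, library size alone 15, at least 5 reads 15, no filter 17 and left-out libraries 16 to 17. With the pool number as a replicate block there were again 17. Of the 48 differences, 6 changed sign under some alternative, none of them larger than 0.44 in size. Position gave 0 calls under 14 alternatives, 1 of them added after the data were seen (9 to 66 bins at an unadjusted p under 0.05). Direction and reads gave 0 under 5 each (36 to 55 and 31 to 116 unadjusted). Adjusted p for position ranged from 0.0867 to 0.329 for PHO4, 0.120 to 0.330 for MNN4, 0.106 to 0.303 for UTH1, 0.0919 to 0.486 for ZWF1 and 0.106 to 0.296 for SPO24. Among single results other than these summaries, 112 moved and 1277 did not. Shares were held to their SD and log2 differences to their SE. Protein counts were held to a set ratio, and an adjusted p only to its side of 0.05. With 2 replicates at most and 1 Sir4-free library, folds have no error from the Sir4-free side beyond counting.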
